A study of Mus musculus with 4 samples.

Results

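Endothelial nuclei were examined in a single-nucleus RNA-seq experiment on the mouse hippocampus. The nuclei came from 2 libraries of wild-type (WT) mice and 2 libraries of knock-in mice (KI) with the genotype Cyfip2+/R87C, in which 1 copy of the gene encodes the R87C protein, on the C57BL/6N background at postnatal week 28. The labels number the libraries as replicates without saying how many mice each holds, so p-values measure the spread between these libraries, which may be technical. The knock-in allele is carried by every cell of the mouse, so that the endothelium carries it as the neurons do, and the study uses the KI mice as a model of a childhood epilepsy. All 4 libraries carry 1 batch label. The treatment label of KI replicate 2 reads R88C where its protocol reads R87C, and the library was kept as KI by its title and genotype. The nuclei were chosen by measured values: of 55295 barcodes that reached 500 genes and stayed below 5% of UMIs (unique molecular identifiers, each 1 counted transcript) from mitochondrial genes, those were taken that held at least 3 of 9 endothelial markers (Flt1, Cldn5, Pecam1, Ly6c1, Adgrl4, Mecom, Slco1a4, Abcb1a and Ptprb), fewer than 2 of 7 genes of other classes (Mobp, Mog, Prr5l, Pdgfra, Gja1, Inpp5d and Pdgfrb) and at most 3 UMIs of Gad1, Gad2 and Slc17a7 together. This left 108 nuclei, 42 and 17 in WT replicates 1 and 2 and 20 and 29 in KI replicates 1 and 2.

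Endothelial cells line the blood vessels. In the brain they form the blood-brain barrier: claudin-based tight junctions seal the cells to each other, carriers such as the glucose transporter Slc2a1 bring nutrients in, and pumps such as Abcb1a return drugs and toxins to the blood. Wnt and Norrin signals through Frizzled receptors keep this barrier state, and arteries, capillaries and veins hold endothelial cells with different genes.

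Nuclei at the edge of the rule held fewer marker UMIs per 1000 UMIs than the others, to a degree that differed between libraries. Of the filtered barcodes, 149 held 3 or more of the 9 markers, and 41 of them were dropped, 38 for genes of other classes and 7 for neuron genes, some for both. The 18 nuclei with exactly 3 markers had a median of 2865 UMIs and 1.97 marker UMIs per 1000 UMIs, and the 90 with 4 or more had 1426 UMIs and 10.9 per 1000. By library, those with exactly 3 had medians of 976 and 5289 UMIs in WT and 8016 and 910 in KI. Their marker UMIs were 4.08 and 0.945 per 1000 in WT and 0.499 and 5.49 in KI. The 100 nuclei just outside, with exactly 2 markers and passing the other limits, had 8046 UMIs and 0.258 marker UMIs per 1000. All 9 markers were detected together in 13 nuclei. No barcode was selected in more than 1 library, and 2 of the 108 barcodes also occurred in another library.

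Checked against markers, the 108 nuclei were not of 1 kind. In 83 of them, called marker-rich here, the 9 markers made up at least 5 UMIs per 1000, with a median of 11.3 per 1000 and 7.83 UMIs per 1000 of a list of 12 neuron genes (Snap25, Syt1, Grin2a and others, and Slc17a7, which the rule limits). In the other 25 the markers made up a median of 1.55 per 1000, and the neuron genes 33.7 per 1000, beside 35.6 to 36.9 per 1000 in the summed other nuclei of the 4 libraries. The marker-poor nuclei were also deeper, with a median of 6877 UMIs against 1164, so that they held 57.8% of the 332371 UMIs of the selected nuclei. By library they held 47.1% and 61.5% of the UMIs in WT and 59.6% and 63.8% in KI. These 25 nuclei thus held neuron RNA beside endothelial markers, and their neuron genes ranged from 3.10 to 45.9 per 1000. Of 10 endothelial markers that the rule did not use, Slc2a1 was found in 15 of them and Emcn and Egfl7 in 8 each. Vwf was found in 7, Tek in 6, Erg in 5, Tie1 in 2, and Cdh5, Kdr and Esam in 1 each. Together these 10 markers had a median of 0.423 UMIs per 1000 there, against 3.96 in the marker-rich nuclei. The label holds less clearly for the 25 marker-poor nuclei. The comparisons below were made in all 108 nuclei and again in the 83 marker-rich nuclei, 34 and 10 in WT and 15 and 24 in KI. The limit of 5 per 1000 was set after the values had been seen.

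**Figure D1:**
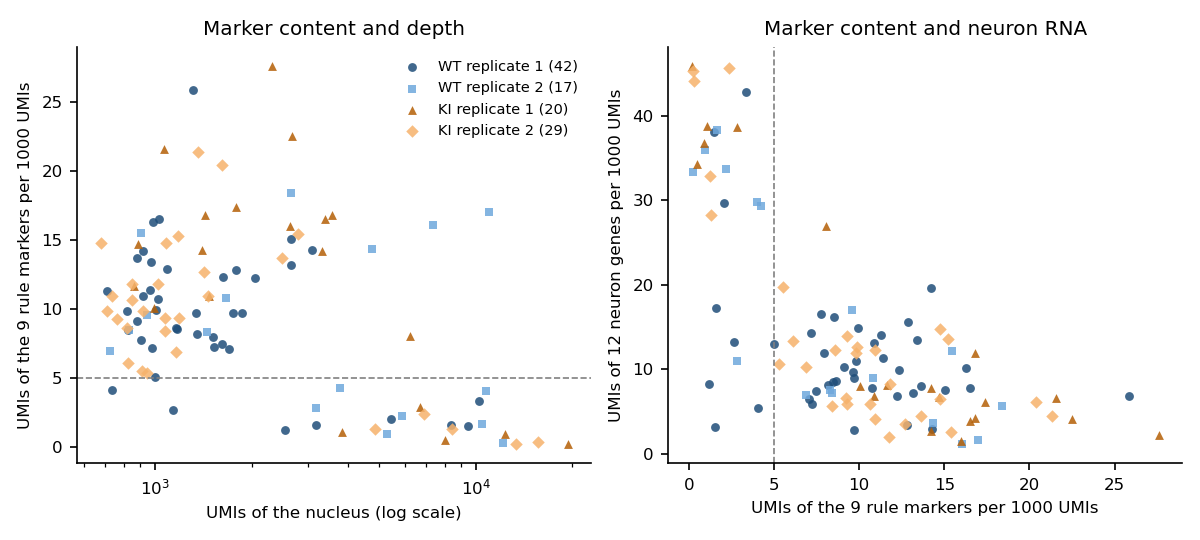
Each point is 1 of the 108 nuclei, with the number per library in the key. The left panel sets the UMIs of the 9 markers per 1000 UMIs (linear axis) against the UMIs of the nucleus (log axis), the right panel the UMIs of 12 neuron genes per 1000 against those of the markers, and the dashed lines mark 5 marker UMIs per 1000; the 25 nuclei under that line include most of the deepest ones, and their median of neuron genes is 33.7 per 1000 against 7.83 in the other 83.

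The 9 markers that chose the nuclei are a description only. Adgrl4, an adhesion receptor of endothelial cells, was detected in 85.2% of the 108 nuclei, the organic anion carrier Slco1a4 in 82.4%, the VEGF receptor Flt1 in 80.6% and the transcription factor Mecom in 76.9%. Ptprb, a phosphatase of vessels, followed with 64.8%, the tight junction protein Cldn5 with 63.0%, Ly6c1 and the efflux pump Abcb1a with 51.9% each, and the adhesion molecule Pecam1 with 36.1%. In 5513 neuron nuclei, which have over 3 UMIs of Gad1, Gad2 and Slc17a7 and median depths of 7709 to 9234 UMIs per library, the same genes were detected in 0.218% to 3.48% of nuclei although the selected nuclei had a median of only 1441 UMIs.

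Of 10 endothelial markers that the rule did not use, at least 1 was found in 99 of the 108 nuclei. Slc2a1 was detected in 73.1%, against 6.35% of the neuron nuclei, Egfl7, a secreted vessel protein, in 43.5% against 4.24%, the vascular sialomucin Emcn in 35.2% against 1.80%, and the junction protein Esam in 29.6% against 0.943%. The ETS factor Erg was found in 28.7% against 0.472%, Vwf in 21.3% against 0.236%, Kdr in 19.4% against 0.834%, Tie1 in 19.4% against 0.0907%, and Cdh5, the cadherin of endothelial junctions, in 13.0% against 0.0726%. The angiopoietin receptor Tek was found in 28.7% against 26.5%. The neuron nuclei were deeper and were not thinned, so none of these pairs of shares is at equal depth. With each endothelial nucleus thinned to 650 UMIs, Slc2a1 was still seen in 53.7% and Tek in 7.41% of the nuclei. Of these 10 genes, 9 were detected in a smaller share of the marker-poor than of the marker-rich nuclei, from 4.00% against 37.3% for Esam to 32.0% against 36.1% for Emcn. By share of nuclei Vwf went the other way, with 7 of 25 against 16 of 83. These shares are not at equal depth, with medians of 6877 UMIs in the marker-poor and 1164 in the marker-rich nuclei. The marker-poor nuclei held 57.8% of all UMIs, but only 9 of the 45 Vwf UMIs and 16 of the 68 Emcn UMIs.

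**Figure D2:**
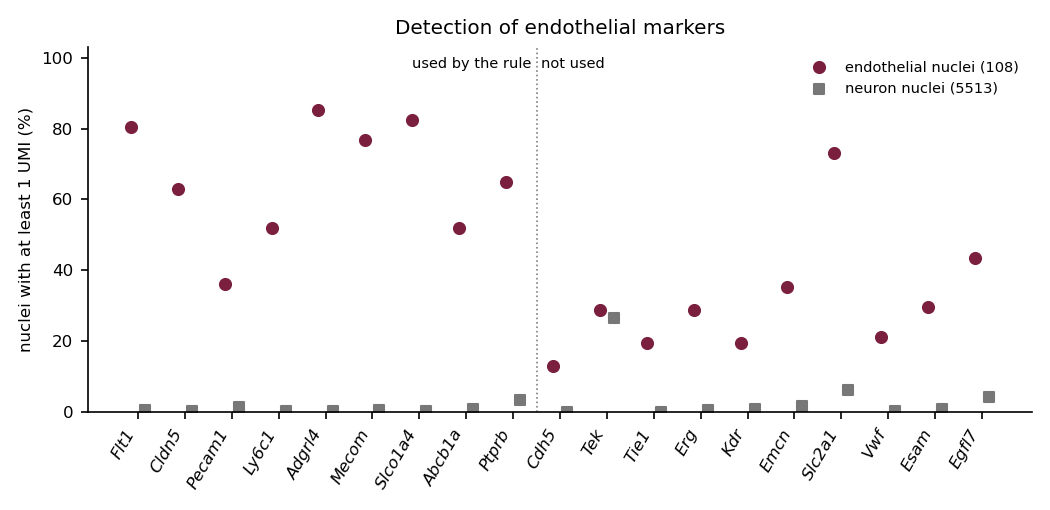
Share of nuclei with at least 1 UMI (linear axis, percent) of the 9 markers used by the rule, left of the dotted line, and of 10 that it did not use, right of it, in the 108 endothelial nuclei (circles) and in 5513 neuron nuclei (squares). Slc2a1 reaches 73.1% against 6.35%, and Tek is at 28.7% against 26.5%.

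ETS factors, such as Erg and Ets1, are known regulators of endothelial genes and bind sites with a GGAA core, so the promoters of the genes that mark these nuclei were searched for AGGAAG on both strands. RefSeq promoters (GRCm38.p6, 250 bases before to 50 after the start of transcription) were found for 27 of 34 genes, the 9 markers and the 25 leading genes described next. The letters occurred in 16 of the 33 promoters of these genes (48.5%) and in 35.4% of all 32851 promoters of the table. Stretches before the start of 3 marker genes are shown with the matches in capitals, where CTTCCT is the match on the other strand, as examples from a receptor, a pump and a carrier of the rule. Of the other markers of the rule, Adgrl4 and 1 of 2 promoters of Ly6c1 hold a match too and are not shown, the other promoter of Ly6c1, both of Mecom and that of Cldn5 hold 0, and Pecam1 and Ptprb were not matched to the table.
Flt1 (chr5:147726108-147726167, minus strand): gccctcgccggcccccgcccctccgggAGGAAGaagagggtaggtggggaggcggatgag
Abcb1a (chr5:8566960-8567019, plus strand): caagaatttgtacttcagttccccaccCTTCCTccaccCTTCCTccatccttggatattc
Slco1a4 (chr6:141856292-141856351, minus strand): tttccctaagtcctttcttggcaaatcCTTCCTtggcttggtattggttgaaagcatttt
The stretch of Flt1 lies 156 to 97 bases before the start, and the other two lie 131 to 72 bases before it. A match is a description of the letters and not a bound site.

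Outside the rule, 25 genes with at least 50 UMIs stood highest in the ratio of their CPM (the UMIs of a gene per 1000000 summed UMIs) in the 108 nuclei to that in 55146 other nuclei, which hold fewer than 3 of the markers. This is a description, since the nuclei were chosen by genes that go with these. The ratios ran from 90.4 to 593. The surface antigen Ly6a led at 593, Ctla2a at 569.7, and the adhesion receptor Adgrf5 at 285. The flow-responsive factor Klf2 was at 215, the BMP target Id1 at 214, Nostrin, which binds endothelial nitric oxide synthase, at 191, the TGF-beta co-receptor Eng at 158, the hypoxia factor Epas1 at 114 and Slc2a1 at 97.8. The chemokine Cxcl12, the interferon-induced Ifitm3 and the transcription factor Ebf1 were at 96.1, 137 and 96.7. Paqr5, Cyyr1, Hspb1, Xdh, Prom1, Itm2a, Pltp, Ahnak and Igfbp7 were the other genes of vessels among them. The remaining 4 of the 25 mark other cells: the pericyte genes Rgs5 (333) and Vtn (93.2), the choroid plexus gene Ttr (98.0) and the haemoglobin gene Hba-a1 (90.4).

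Those 4 genes came from a few nuclei in part. Ttr, which encodes the transthyretin of the choroid plexus, had 1741 UMIs, and 1632 of them lay in 1 marker-poor nucleus of WT replicate 1 with 8375 UMIs. The blood list (4 haemoglobin genes, Alas2, Ptprc and Cd3e) reached 266 UMIs in 1 marker-rich nucleus of WT replicate 1 with 1754 UMIs. In the sums of the marker-rich nuclei the blood list stood at 9179 and 217 CPM for WT against 1822 and 215 CPM for KI. Rgs5 was more widespread, with 193 UMIs in 44 nuclei, and Vtn had 83 UMIs in 25 nuclei. Of the pericyte and smooth muscle list, 11 of 12 genes had a UMI, and 41 of the 108 nuclei held more than 1 UMI of it. Of the genes that define smooth muscle, Tagln was at 0, Myh11 had 1 UMI and Acta2 had 5 UMIs, all 5 in 1 nucleus. In all 108 nuclei the list summed to 1308 and 1849 in WT against 1282 and 1167 CPM in KI, with both KI libraries below both WT libraries, and to 1227 and 1646 in WT against 1187 and 1103 CPM in KI without Pdgfrb, a gene that the rule limits, in the same order. It summed to 1844 and 3624 CPM in the marker-rich nuclei of WT against 3174 and 3009 CPM in those of KI, where the genotypes overlapped with Pdgfrb and without it. The deepest marker-rich nucleus, of WT replicate 2, had 11003 UMIs with 187 marker UMIs and 68 UMIs of this list, 9 of them of Pdgfrb, the receptor of pericytes that counts once in the rule, and it gave 34.1% of the marker-rich UMIs of its library.

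Genes of the 3 vessel segments were unevenly covered among the marker-rich nuclei. The capillary list (12 genes such as Spock2, Slc7a5 and Rgcc) had 832 UMIs in 75 of the 83 nuclei, the venous list (15 genes such as Il1r1, Vwf and Nr2f2) 262 UMIs in 55 nuclei, and the arterial list (18 genes such as Bmx, Gkn3 and Tm4sf1) 148 UMIs in 51 nuclei. At least 3 UMIs of a list were found in 64 nuclei for the capillary, 29 for the venous and 20 for the arterial genes. Per 1000 UMIs the capillary genes stood at 5.01 and 6.57 in WT and 6.38 and 6.16 in KI. The arterial genes stood at 0.803 and 0.929 in WT and 1.15 and 1.50 in KI, so that both KI libraries were above both WT libraries, on 30 to 42 UMIs each. In all 108 nuclei the arterial list overlapped, at 746 and 668 in WT against 688 and 687 CPM in KI. The capillary list had both KI libraries below both WT libraries there, at 3372 and 3113 in WT against 2932 and 2607 CPM in KI, where the marker-rich nuclei overlapped. The venous genes stood at 1.04 and 3.56 in WT and 1.56 and 1.65 in KI, and WT replicate 2 was the highest. There, 93 of 115 venous UMIs lay in 1 nucleus of 7349 UMIs, with 34 UMIs of the interleukin-1 receptor Il1r1, 18 of Vwf and 9 of the venous factor Nr2f2. The capillary list had a median log2 fold change of -0.24 over 8 genes in all nuclei and 0.06 over 7 in the marker-rich nuclei, and its smallest p in all nuclei was that of Hmcn1 (-0.70 ± 0.45, adjusted p = 0.573). Stmn2 of the arterial list, which neurons also express, was at 80.3 and 95.4 CPM (WT) and 119 and 169 CPM (KI) in all nuclei and was not tested. Of the arterial list and of the venous list, 1 gene each was deep enough to be tested between the genotypes: Tm4sf1 differed by 0.48 ± 0.59 and Tshz2 by 0.57 ± 0.48 on the log2 scale (± SE, KI over WT, marker-rich nuclei), with adjusted p = 0.955 and 0.937.

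The share of endothelial nuclei did not separate the genotypes. It was 0.263% (exact 95% interval 0.189 to 0.355%) and 0.129% (0.0753 to 0.207%) of the filtered nuclei in WT. In KI it was 0.159% (0.0973 to 0.246%) and 0.213% (0.143 to 0.306%). The Clopper-Pearson intervals cover counting error only. Both KI values lay between the 2 WT values. The means were 0.196 ± 0.0945% in WT and 0.186 ± 0.0382% in KI (SD, n = 2 each), a difference of -0.00970 percentage points (exact two-sided permutation test, p = 1, where the smallest p that 2 against 2 libraries allow is 0.333). The marker-rich nuclei were 0.213% and 0.0760% in WT and 0.119% and 0.177% in KI, again with KI between the WT values.

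Between the genotypes, 2 of 1772 genes tested in the sums of the 108 nuclei passed an adjusted p of 0.05 (0.113%), and neither is an endothelial gene. Kcnq5, a potassium channel of neurons, was higher in KI and Htr2c, a serotonin receptor of neurons and the choroid plexus, was lower. At an unadjusted p under 0.05 there were 197 genes (11.1%), and DESeq2 called 1 gene, with 63 at an unadjusted p under 0.05. In the marker-rich nuclei, none of 539 genes tested passed (0.0%), 32 (5.94%) had an unadjusted p under 0.05, and DESeq2 called 0 genes with 4 at that level. Leaving out 1 library there gave 2 calls without WT replicate 1 (Il1r1 and Kcnip4), 5 without WT replicate 2 (4 haemoglobin genes and Ttr, all lower in KI) and 0 without either KI library. On simulated sums with 100 genes changed 4-fold and 100 changed 8-fold, the test recovered 68 and 81 of them for all 108 nuclei (1768 genes tested), with 3 false calls. For the marker-rich nuclei (569 genes tested) it recovered 77 and 89, with 8 false calls. Both simulations drew every gene with the same spread between libraries (dispersion 0.0693), estimated in the sums of all 108 nuclei. They did not model genes that vary more or UMIs concentrated in single nuclei, so recovery in the real sums was not measured.

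Kcnq5 (chr1:21398403-21961942, minus strand, GRCm38) was at 172 and 561 CPM (WT) and 2089 and 2996 CPM (KI), 2.86 ± 0.44 (± SE) as a log2 fold change, and edgeR gave it an adjusted p of 0.00865. The 2 KI libraries were above both WT libraries. The fold change was 2.32 without WT replicate 1 and 3.92 without WT replicate 2, and passed in both. Of its 469 UMIs, 443 lay in the marker-poor nuclei, and the 3 highest nuclei held 159, 113 and 67 UMIs, all in KI. Among marker-rich nuclei it stood at 217 and 62.0 in WT against 147 and 322 CPM in KI, where the genotypes overlapped on 26 UMIs. Htr2c (chrX:146962513-147197277) was at 356 and 286 CPM (WT) and 47.5 and 38.9 CPM (KI), -2.80 ± 0.52 on that scale at an adjusted p of 0.0491. Here the KI libraries were below both WT libraries. Its 62 UMIs came from 9 nuclei, 58 of them from marker-poor nuclei, and the 3 highest nuclei, all WT, held 55. The marker-rich nuclei held 0 and 0 UMIs in WT and 2 and 2 in KI, so that the order was the opposite there. The choroid plexus and ependyma list summed to 20004 and 71.6 in WT against 154 and 64.9 CPM in KI in all nuclei, and its part in the Htr2c counts was not tested. With the marker-rich nuclei alone, neither gene was deep enough to be tested.

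In the sums of all 108 nuclei, neuron markers summed higher in both KI libraries than in both WT libraries, and none of the 12 genes passed the adjusted threshold. The deepest nucleus of each library was marker-poor, with 10231 and 12181 UMIs in WT and 19336 and 15638 in KI. These nuclei held 42.8 and 33.3 neuron-list UMIs per 1000 in WT and 45.9 and 44.2 in KI. That of KI replicate 1 gave 888 of the 2326 neuron-list UMIs of its library. The 12 neuron genes summed to 17136 and 21289 CPM for WT against 27609.9 and 28860.1 CPM in KI, without overlap, and 5 of the 12 genes tested had an unadjusted p under 0.05 (beside 11.1% of all genes tested, 96 of those 197 with a positive fold change), all with a positive fold change, among them Rbfox1 (0.89 ± 0.29, adjusted p = 0.253) and Snap25 (0.96 ± 0.40, adjusted p = 0.382). Slc17a7 of this list is limited by the rule, and without it the sums were 16964 and 21206 in WT against 27479 and 28730.4 CPM in KI, and the 5 were of 11 genes. In the marker-rich nuclei the list summed to 8984 and 3779 CPM for WT against 8874 and 7703 CPM in KI, with overlap, and none of 9 genes tested, Slc17a7 not among them, had an unadjusted p under 0.05, beside 5.94% of all genes tested there. The list's median log2 fold change was 0.54 in all nuclei and 0.38 in the marker-rich nuclei, beside -0.0067 and -0.02 over all genes tested. The part of this RNA in the changes of other genes was not tested. Astrocyte genes stood at 1698 and 1097 in WT against 997 and 713 CPM in KI, oligodendrocyte genes at 1101 and 262 in WT against 415 and 662 CPM in KI and those of their precursors at 401 and 883 in WT against 320.5 and 272 CPM in KI. Microglia genes stood at 264 and 191 in WT against 166 and 337 CPM in KI and fibroblast genes at 241 and 59.6 in WT against 131 and 129.7 CPM in KI, all in the sums of the 108 nuclei, and the astrocyte and precursor lists were those of these 5 with both KI libraries below both WT libraries. These lists hold genes that the rule limits too: Gja1 for astrocytes, Mobp, Mog and Prr5l for oligodendrocytes, Pdgfra for their precursors and Inpp5d for microglia. Without Gja1 the astrocyte genes stood at 1640.2 and 1097 in WT against 985 and 713 CPM in KI, and without Pdgfra the precursor genes at 390.0 and 883 in WT against 320.5 and 259 CPM in KI, with KI below WT in both as before. In the marker-rich nuclei both lists, again without these genes, had KI below WT too, at 1844 and 1177 in WT against 999 and 1039 CPM in KI for astrocytes. Precursor genes stood there at 369 and 310 in WT against 235 and 215 CPM in KI. Fibroblast genes had KI above WT there, at 108 and 31.0 in WT against 176 and 215 CPM in KI, on 5 and 1 UMIs in WT and 6 and 6 in KI. The oligodendrocyte and microglia lists overlapped there.

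The genes next to Kcnq5 in the sums of the 108 nuclei did not pass the threshold. They were Sv2b, a synaptic vesicle protein, Oxr1, Stxbp5l, the protocadherin Pcdh7, Cpne7 and the unnamed transcripts Gm32647, A230006K03Rik, Gm20754 and 4930509J09Rik. Both KI libraries were above both WT libraries in 18.0% of all genes tested and below both in 24.2%, but these genes were named for having no overlap, so nothing is read from their order. Their log2 fold changes ran from 1.64 to 2.53 and their adjusted p from 0.088 to 0.156, and 81.5% to 96.0% of their UMIs lay in the marker-poor nuclei. On the other side, with KI below WT, Gabrg3, a GABA receptor subunit, and Erbb4, the neuregulin receptor, had 79.7% and 70.9% of their UMIs there, with log2 fold changes of -2.21 ± 0.48 and -2.05 ± 0.47 (adjusted p = 0.0986 each). The others of this group were mostly carried by marker-rich nuclei: Fzd6, Lrch1, the nuclear long noncoding RNA Neat1, Plcl1, the chaperone Calr and the mitochondrial transcripts mt-Co2 and mt-Co3, at 13.6% to 48.3% in marker-poor nuclei. Neat1 stood at 347 and 465 in WT against 118 and 107 CPM in KI in the marker-rich nuclei, where the genotypes did not overlap (-1.77 ± 0.73, adjusted p = 0.647). The mt-Co3 level there overlapped, with 1063 and 3376 in WT against 1616 and 1218 CPM in KI, and its direction turned in nuclei without any UMI of neuron or other-class genes (1.19 on the log2 scale).

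**Figure D3:**
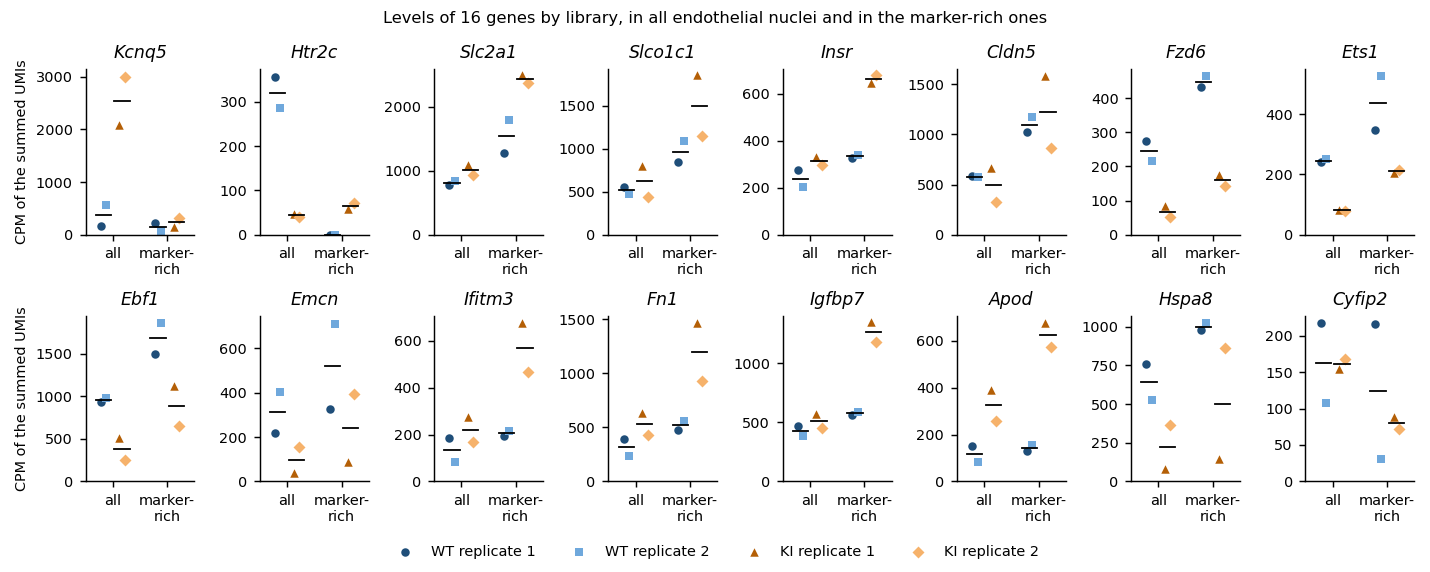
Level of 16 genes (CPM of the UMIs summed per library, linear axes from 0, each panel with its own scale) in all 108 endothelial nuclei and in the 83 marker-rich ones. Points are libraries, 2 WT and 2 KI, and bars their means; Kcnq5 and Htr2c separate the genotypes in all nuclei, Kcnq5 overlaps in the marker-rich nuclei, and the order of Htr2c is the opposite there on 4 UMIs.

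The transporters of the barrier did not separate the genotypes as a list. Markers of the rule, whose fold changes are a description only, are among the genes of this list (2) and of the lists of junctions (2), transcription factors (1) and inflammation (1), and without them the medians of these lists moved by at most 0.06 on the log2 scale. Of 29 genes, 28 had a UMI, 14 were tested in all nuclei and 13 in the marker-rich nuclei, and none passed the adjusted threshold in either. The median log2 fold change was -0.17 in all nuclei beside -0.0067 over all genes tested, and 0.06 beside -0.02 in the marker-rich nuclei. Slc2a1, the glucose transporter of the barrier, was at 768 and 835 CPM (WT) and 1092 and 934 CPM (KI), with both KI libraries above both WT libraries, but the change of 0.39 ± 0.34 did not pass (adjusted p = 0.717). Among marker-rich nuclei it stood at 1538 ± 365 CPM for WT against 2431 ± 94.2 CPM for KI (SD, n = 2), again without overlap. Its change there was 0.70 ± 0.43, with an adjusted p of 0.867. In nuclei with at most 1 pericyte or smooth muscle UMI its direction was the opposite, at -0.54 on the log2 scale, as it was for Id1 (-0.62), Adgrf5 (-0.87) and Epas1 (-0.48), which are described below.

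Of the other transporters in the marker-rich nuclei, Slco1c1, a carrier of thyroid hormone, was at 846 and 1084 in WT against 1851 and 1146 CPM in KI, and the cationic amino acid carrier Slc7a1 at 325 and 279 in WT against 441 and 717 CPM in KI. The insulin receptor Insr was at 325 and 341 in WT against 646 and 681 CPM in KI, the only gene of the list with an unadjusted p under 0.05 there, beside 5.94% of all genes tested (1.01 ± 0.47, unadjusted p = 0.0436, adjusted p = 0.806). All 3 had KI above WT without overlap, as did Slc2a1, which makes 4 of the 13 genes beside 13.9% of all genes tested in these nuclei. The taurine carrier Slc6a6 was the only 1 of the 13 with KI below WT, at 716 and 991 in WT against 676 and 537 CPM in KI (-0.44 ± 0.48, adjusted p = 0.949), beside 20.6% of all genes tested. The amino acid carrier Slc7a5 (1019.9 and 1332 in WT against 999 and 1397 CPM in KI), the efflux pump Abcg2 (759 and 1301 in WT against 617 and 1361 CPM in KI) and the transferrin receptor Tfrc (325 and 279 in WT against 323 and 358 CPM in KI) overlapped. The markers used by the rule overlapped too for Slco1a4 (1714 and 2849.7 in WT against 3497 and 2042 CPM in KI) and Abcb1a (803 and 991 in WT against 940.3 and 466 CPM in KI), where KI replicate 2 was the lowest for Abcb1a. The lipid carrier Mfsd2a had 23 UMIs in all and was not tested.

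Junction genes gave no call either. Of 21 genes, all had a UMI, 10 were tested in all nuclei (median log2 fold change -0.32) and 7 in the marker-rich nuclei (median 0.04). In all nuclei both KI libraries were below both WT libraries for 5 of the 10 and above for 0, beside 24.2% and 18.0% of all genes tested. The list, Cldn5 and Pecam1 of the rule included, summed to 4129 and 3983 in WT against 3668 and 2698 CPM in KI there. In the marker-rich nuclei it overlapped, at 5946 and 7093 in WT against 7405 and 5625 CPM in KI. Cldn5, the claudin of the barrier, was at 1019.9 and 1177 CPM (WT) and 1587 and 859.8 CPM (KI) of the marker-rich nuclei, and the KI libraries were the highest and the lowest of the 4. The scaffold Tjp1 was likewise widest in KI, at 1019.9 and 1487 in WT against 1675 and 824 CPM in KI (0.04 ± 0.48, adjusted p = 0.998). Esam had KI above WT, at 347 and 186 in WT against 411 and 394 CPM in KI (0.55 ± 0.49, adjusted p = 0.937). Pecam1 had KI below WT, at 369 and 558 in WT against 323 and 251 CPM in KI, and belongs to the rule. The catenin Ctnnd1 was the gene of the list with the smallest p in all nuclei, at 206 and 131 CPM (WT) and 23.7 and 90.8 CPM (KI) (-1.52 ± 0.68, adjusted p = 0.4), on 38 UMIs. Occludin (Ocln, 27 UMIs) and Cdh5 (20 UMIs) were too low to be tested.

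Vessel growth receptors gave no call. Of 20 genes of VEGF, angiopoietin and apelin signalling, 16 had a UMI, 7 were tested in all nuclei and 5 in the marker-rich nuclei, and none passed. In both sets 3 of these were Flt1, Adgrl4 and Ptprb, which the rule used. The median was -0.24 in all nuclei and 0.03 without these 3, over 4 genes, and Adgrf5 and Tek alone were left in the marker-rich nuclei. Flt1 and Adgrl4 were at 2148 and 3221 in WT against 3438 and 2042 CPM in KI and 1606 and 1951 in WT against 1822 and 1899 CPM in KI in the marker-rich nuclei. The orphan receptor Adgrf5 had KI above WT, at 499 and 774 in WT against 1028 and 896 CPM in KI (0.64 ± 0.48, adjusted p = 0.937), and Tek, the angiopoietin receptor, had KI below WT, at 347 and 403 in WT against 176 and 287 CPM in KI (-0.68 ± 0.54, adjusted p = 0.937). The VEGF co-receptor Nrp1 had the smallest p of the list in all nuclei, at 149 and 215 CPM (WT) and 261 and 389 CPM (KI) (0.89 ± 0.45, adjusted p = 0.477), with 73.5% of its UMIs in marker-poor nuclei. Kdr, the main VEGF receptor, had 36 UMIs and was not tested. No gene of the Notch list (13 genes, 12 with a UMI) was deep enough. Its highest, Maml3 and the target Hes1, had 35 and 34 UMIs.

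Fzd6, a Frizzled receptor for Wnt signals, had the smallest p of the Wnt and Norrin list. It was at 275 and 215 CPM (WT) and 83.1 and 51.9 CPM (KI) in all nuclei, -1.78 ± 0.51 on the log2 scale with an unadjusted p of 0.00296 and an adjusted p of 0.184. Marker-rich nuclei, which held 45 of its 53 UMIs, had Fzd6 at 434 and 465 in WT against 176 and 143 CPM in KI (-1.43 ± 0.54, adjusted p = 0.647). The KI libraries were below both WT libraries in both sets without passing the threshold. Of the 53 Fzd6 UMIs, 10 lay in 1 marker-rich nucleus of WT replicate 2 with 11003 UMIs, and no other nucleus held more than 3. In all nuclei the Fzd6 change was -1.50 without WT replicate 1 and -1.95 without WT replicate 2. Lef1, a factor that carries the Wnt signal to DNA, was at 629 and 558 in WT against 529 and 358 CPM in KI in the marker-rich nuclei, with KI below WT as well (-0.39 ± 0.48, adjusted p = 0.955), while beta-catenin (Ctnnb1) overlapped at 347 and 496 in WT against 470.2 and 394 CPM in KI. Of the 20 genes of the list, 6 were tested in all nuclei (median -0.67) and 4 in the marker-rich nuclei (median -0.15).

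Among 26 endothelial transcription factors, 12 were tested in all nuclei with a median of -0.39, and 4 had an unadjusted p under 0.05 (beside 11.1% of all genes tested, 101 of those 197 with a negative fold change), all with a negative fold change: the ETS factors Ets1 and Elk3, Ebf1 and Klf4. Ets1 was at 241 and 250.5 CPM (WT) and 83.1 and 77.8 CPM (KI) (-1.54 ± 0.48, adjusted p = 0.248), and Ebf1 was at 929 and 978 CPM (WT) and 510.4 and 246 CPM (KI) (-1.27 ± 0.41, adjusted p = 0.253). Of the 55 Ets1 UMIs, 10 lay in 1 marker-rich nucleus of WT replicate 2 with 11003 UMIs, and no other nucleus held more than 3. The Ets1 change was -1.48 without WT replicate 1 and -1.52 without WT replicate 2. Among marker-rich nuclei none of 10 genes tested had an unadjusted p under 0.05, beside 5.94% of all genes tested, with a median of -0.11. There, Ets1 was at 347 and 527 in WT against 206 and 215 CPM in KI (-0.99 ± 0.51) and Ebf1 at 1497 and 1859 in WT against 1117 and 645 CPM in KI (-0.89 ± 0.47), both with adjusted p = 0.835. Both KI libraries were below both WT libraries there for 5 of the 10 genes, beside 20.6% of all genes tested. Tcf4 was 1 of them, at 1541 and 1828 in WT against 1381 and 1469 CPM in KI, but overlapped in all nuclei (0.11 ± 0.31). Ebf1 is also a gene of pericytes, whose list had both KI libraries below both WT libraries in all nuclei and overlapped in the marker-rich nuclei, with Pdgfrb and without it, and the part of pericyte RNA in the Ebf1 counts was not tested. The Ebf1 change was -2.13 in nuclei with at most 1 pericyte or smooth muscle UMI, -0.39 in those without a UMI of neuron or other-class genes, and -0.18 with each nucleus thinned to at most 1000 UMIs. Mecom, used by the rule, overlapped at 1823 and 1579.7 in WT against 1499 and 2293 CPM in KI, and Klf2 at 846 and 805 in WT against 911 and 717 CPM in KI. Epas1 was the 1 factor with KI above WT, at 759 and 898 in WT against 1439.9 and 967 CPM in KI (0.57 ± 0.47, adjusted p = 0.937).

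Genes of TGF-beta and BMP signalling had a median of -0.10 in all nuclei (6 of 17 tested) and 0.53 in the marker-rich nuclei (5 tested), with no gene under an unadjusted p of 0.05, beside 11.1% and 5.94% of all genes tested. Id1, a direct target of BMP signals, was at 716 and 805 in WT against 1998 and 931 CPM in KI in the marker-rich nuclei (0.98 ± 0.49, adjusted p = 0.831), and KI replicate 1 alone stood apart. The co-receptor Eng was at 217 and 372 in WT against 470.2 and 466 CPM in KI, and the receptor Bmpr2 overlapped at 521 and 743 in WT against 676 and 752 CPM in KI.

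Ifitm3, an interferon-induced membrane protein, was among the genes with the smallest p in the marker-rich nuclei. It was at 195 and 217 in WT against 676 and 466 CPM in KI there, 1.50 ± 0.47 on the log2 scale with an unadjusted p of 0.00465 and an adjusted p of 0.548. In all nuclei, at 184 and 83.5 CPM (WT) and 273 and 169 CPM (KI), the genotypes overlapped (0.77 ± 0.50, adjusted p = 0.574). It was the only 1 of 7 genes of the inflammation and leukocyte adhesion list tested in these nuclei with an unadjusted p under 0.05 (beside 5.94% of all genes), and the list's median was 0.21 (-0.09 over 8 genes in all nuclei). Cxcl12 overlapped at 738 and 1239 in WT against 1499 and 717 CPM in KI and Ly6c1, used by the rule, at 976 and 1239 in WT against 1264 and 1182 CPM in KI. Of 35 genes in the list, 4 had no UMI in any of the 108 nuclei.

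Fibronectin (Fn1), a protein of the vessel matrix, was at 477 and 558 in WT against 1469 and 931 CPM in KI in the marker-rich nuclei, with KI above WT (1.25 ± 0.49, unadjusted p = 0.0184, adjusted p = 0.647). The matrix protein Sparc went the other way, at 456 and 589 in WT against 411 and 287 CPM in KI (-0.52 ± 0.46, adjusted p = 0.937). The 20 genes of basement membrane and integrins had a median of 0.03 over 7 genes in all nuclei and 0.32 over 5 in the marker-rich nuclei. Igfbp7, a secreted vessel protein outside the lists, was at 564 and 589 in WT against 1352 and 1182 CPM in KI (1.16 ± 0.47, adjusted p = 0.647).

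Apod, a secreted lipid carrier, had the smallest p of the marker-rich nuclei. It was at 130.2 and 155 in WT against 676 and 573 CPM in KI there (2.15 ± 0.49, unadjusted p = 0.000261, adjusted p = 0.141), and at 149 and 83.5 in WT against 392 and 259 CPM in KI in all nuclei (1.52 ± 0.48, adjusted p = 0.248). The latter change was 0.78 with at least 1000 genes per nucleus (adjusted p = 0.59) and 2.43 with each nucleus thinned to at most 1000 UMIs (adjusted p = 0.263). No nucleus held more than 4 of its 73 UMIs, which were spread over 46 nuclei. In the other nuclei of the same libraries Apod was at 82.2 and 47.5 CPM for WT against 547 and 134 CPM in KI, so the KI libraries were above WT there too, and its level over the 108 nuclei was 1.10 times that of the other nuclei. The part of RNA from other cells in its endothelial counts was not tested. Apoe was at 1652 and 549 CPM (WT) and 332 and 584 CPM (KI) in all nuclei (-1.23 ± 0.48, adjusted p = 0.349) and at 1280.3 and 1208 in WT against 735 and 1361 CPM in KI in the marker-rich nuclei, and the genotypes overlapped in both. Its change in all nuclei was -0.12 without WT replicate 1 and -1.80 without WT replicate 2, where it passed (adjusted p = 0.0446). Of 26 genes of caveolae, transcytosis and lipid uptake, 4 were tested in each set, with medians of -0.74 and 0.24. Ptgds, a prostaglandin synthase, was at 1021 and 167 CPM (WT) and 451 and 402 CPM (KI) in all nuclei (-0.45 ± 0.57, adjusted p = 0.816). Its direction was the opposite in the marker-rich nuclei, at 651 and 248 in WT against 823 and 681 CPM in KI (0.71 ± 0.52, adjusted p = 0.937), in nuclei with at least 4 markers (0.52 on the log2 scale) and without WT replicate 1 (1.48). The study singled out Apod, Apoe and Ptgds in these same libraries, so the list is not independent evidence for them.

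With all 4 libraries, no gene of the stress lists passed the adjusted threshold. Sgk1, a kinase induced by glucocorticoids, was at 138 and 83.5 CPM (WT) and 368 and 221 CPM (KI), with KI above WT (1.45 ± 0.48, unadjusted p = 0.00743, adjusted p = 0.253), and 40.3% of its UMIs lay in marker-poor nuclei. The glucocorticoid list had a median of -0.22 over 6 of 20 genes in all nuclei and -0.09 over 4 in the marker-rich nuclei, and Zbtb16 and the mineralocorticoid receptor Nr3c2 were at 333 and 322 CPM (WT) and 166 and 285 CPM (KI) and 596 and 369.7 CPM (WT) and 392 and 584 CPM (KI). Klf9, a glucocorticoid target, was at 260.4 and 341 in WT against 617 and 537 CPM in KI in the marker-rich nuclei (0.98 ± 0.45, unadjusted p = 0.0413, adjusted p = 0.806). The chaperone Hspa8 was at 976 and 1022 in WT against 147 and 859.8 CPM in KI in the marker-rich nuclei, where KI replicate 1 alone was far below the rest (-0.99 ± 0.59, adjusted p = 0.867), and the KI libraries were below WT in the other nuclei too (218 and 175 in WT against 68.9 and 112 CPM in KI). In all nuclei Hspa8 was at 757 and 525 in WT against 83.1 and 363 CPM in KI (-1.48 ± 0.53, adjusted p = 0.306), and leaving out KI replicate 2 gave -2.84, which passed (adjusted p = 0.00195), where leaving out KI replicate 1 gave -0.72 (adjusted p = 0.748). The small chaperone Hspb1 had KI below WT, at 391 and 712 in WT against 294 and 322 CPM in KI (-0.77 ± 0.47, adjusted p = 0.867). The median of the heat shock list was -0.55 over 5 genes in all nuclei and -0.40 over 4 in the marker-rich nuclei. No immediate early gene was deep enough to be tested, and 18 of the 22 in the files had a UMI. The highest, Jund and Ier3, had 33 and 31 UMIs.

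Cyfip2, the gene that carries the KI change and a subunit of the WAVE complex, which drives branched actin, was at 218 and 107 CPM (WT) and 154 and 169 CPM (KI) of all nuclei (0.03 ± 0.49, adjusted p = 0.984). It had 54 UMIs in 32 nuclei, with 70.4% of them in marker-poor nuclei, and 10, 1, 3 and 2 UMIs in the marker-rich nuclei of WT replicates 1 and 2 and KI replicates 1 and 2. The counts do not tell the KI allele from the WT allele, so this value does not check the genotype. Its close relative Cyfip1, which can take its place in the complex, was at 241 and 215 CPM (WT) and 142 and 143 CPM (KI) (-0.62 ± 0.44, adjusted p = 0.625). In the marker-rich nuclei, which carry the endothelial markers, Cyfip1 had 36 UMIs and Cyfip2 had 16. The subunit Nckap1 was at 347 and 496 in WT against 264 and 251 CPM in KI there (-0.65 ± 0.48, adjusted p = 0.937), and Wasf2, the WAVE protein that binds Arp2/3, at 369 and 619.5 in WT against 411 and 394 CPM in KI, with overlap. Of 12 genes of the complex, 8 were tested in all nuclei, none with an unadjusted p under 0.05 (beside 11.1% of all genes tested), and their median was -0.15.

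**Figure D4:**
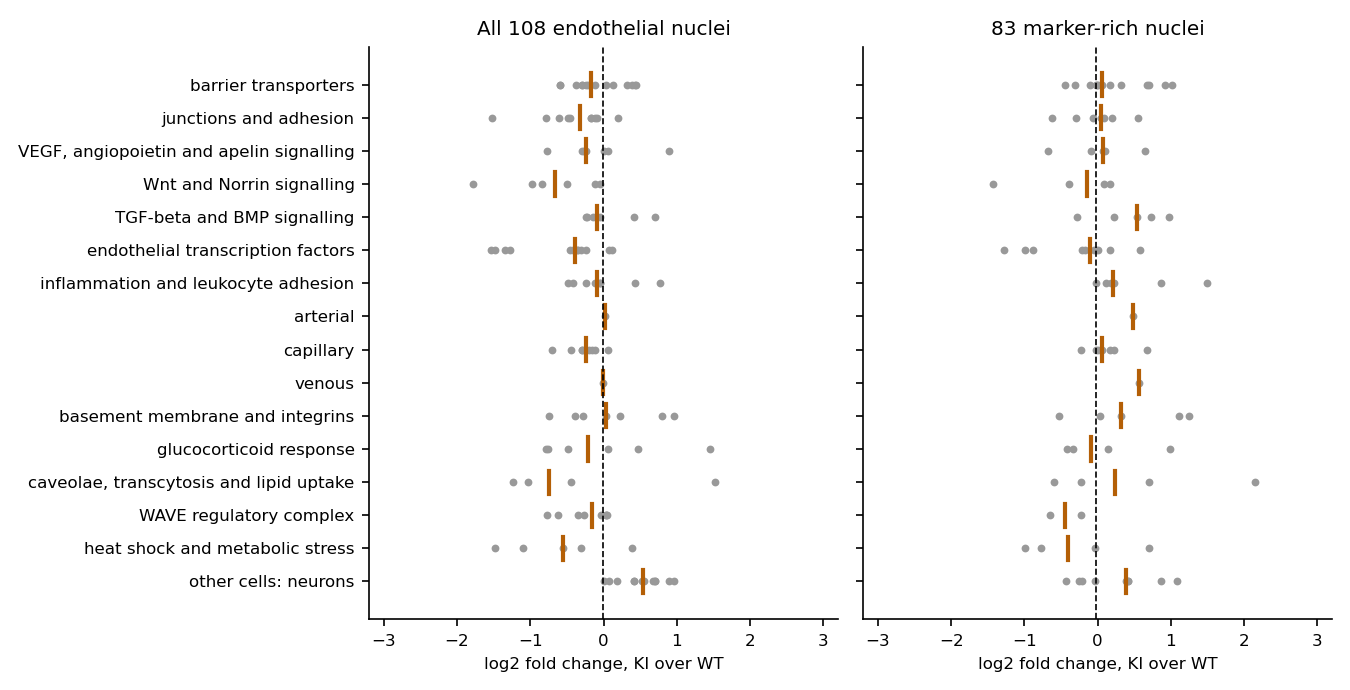
Log2 fold change, KI over WT, of each tested gene (grey points) of the lists named on the left, in all 108 nuclei and in the 83 marker-rich nuclei, genes of the rule included, with the list's median as a bar and the median of all genes tested as a dashed line. The neuron list has a median of 0.54 in all nuclei and 0.38 in the marker-rich nuclei, and the tested genes of the endothelial lists lie on both sides of the dashed line in the marker-rich nuclei.

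Whether a change differed between endothelial and other nuclei was tested directly, by a class-by-genotype term. It passed for 2 of 1772 genes (0.113%), Kcnq5 and Htr2c again, with differences of 2.94 ± 0.45 and -3.00 ± 0.50 on the log2 scale (adjusted p = 0.0336 and 0.0359). In the other nuclei Kcnq5 was near even, at 1151 and 1147 CPM for WT against 1015 and 1089.9 CPM in KI, and so was Htr2c, at 106 and 99.5 in WT against 101 and 109 CPM in KI. Of 539 genes in the marker-rich nuclei, none passed, and 40 had an unadjusted p under 0.05. The smallest p there was that of Slco1c1 (2.47 ± 0.46, adjusted p = 0.259), for which the KI libraries were below WT among the other nuclei (11.8 and 12.8 against 2.82 and 4.17 CPM). It was followed by Fzd6 (-2.91 ± 0.61, adjusted p = 0.311), which stood at 1.13 and 0.960 CPM in the other nuclei of WT and 3.30 and 2.27 CPM in those of KI. The nuclear RNA Malat1, looked at after its values had been seen, was at 88999 and 87096 CPM in the other nuclei of WT and 137015 and 121353 CPM in those of KI. In the marker-rich endothelial nuclei it overlapped, at 101272 and 87752 in WT against 90271 and 104722 CPM in KI, but the difference between the classes was -0.52 ± 1.29 and did not pass (adjusted p = 0.988).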

How the data were processed

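Nuclei of both hippocampi were read with a droplet method for the 3' ends of transcripts, in 4 libraries. Cell Ranger 7.0.1 and mm10 are named in the submitters' notes, and the matrices that the authors deposited hold the raw UMI count of every gene in every barcode. Positions are those of GENCODE M21. Groups came from the GEO titles and genotypes. No column was left out.

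Barcodes were filtered and selected by the rule given in the report. Doublets were not removed: Scrublet (scanpy 1.11.5, expected rate 0.08) scores above 0.25 marked 1 of the 108 nuclei. The libraries held 73009975 to 80913580 UMIs. UMIs were summed per library (77096 to 87184 for the 108 nuclei, 27912 to 46084 for the marker-rich ones), since nuclei of 1 library are not replicates. Genotypes were tested with edgeR 4.0.16 in R 4.3.3 (filterByExpr, TMM factors, quasi-likelihood test, Benjamini-Hochberg over all genes tested, threshold 0.05), with DESeq2 1.42.0 as an alternative. The class-by-genotype test kept the library as a block. The test was tried on simulated counts. With so few nuclei, the counts behind single genes limit the precision.

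The nuclei, the gene lists and the tests were chosen with earlier results of these data known. Named were genes with an adjusted p below 0.05, up to 10 genes per direction with the smallest p among those with at least 20 UMIs and no overlap of the genotypes, the 2 highest genes and the gene with the smallest p of each of 17 lists, Cyfip2, the markers of the rule and the 25 leading genes. The genes with the smallest p in the marker-rich nuclei were added after the values had been seen, and other genes of the lists are named beside them.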

Additional observations from a re-analysis of the deposited data

Results flagged for a closer look

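2 genes changed differently between the genotypes in the endothelial and in the other nuclei, by the class-by-genotype term of edgeR over 1772 genes. Kcnq5 differed by 2.94 on the log2 scale (adjusted p = 0.0336), and Htr2c by -3.00 (adjusted p = 0.0359). Of the endothelial UMIs of these genes, 94.5% and 93.5% lay in the 25 marker-poor nuclei, and neither gene was deep enough to be tested in the marker-rich nuclei. Groups of 2 libraries are too small for a test of single libraries that stand apart.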

How the results depend on the processing

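The count of 2 genes between the genotypes was 1 with RLE size factors, with DESeq2 and with the Scrublet limit, 2 with library totals as size, and 4 with at least 1000 genes per nucleus. It was 0 with at least 4 markers, with no UMI of Gad1, Gad2, Slc17a7 or the 7 other-class genes of the rule (112 genes tested), with sums thinned to equal depth, and, added after the data had been seen, in the marker-rich nuclei, in nuclei with at most 1 pericyte or smooth muscle UMI and with each nucleus thinned to at most 1000 UMIs. Without a filter on low counts 13 of 15538 genes passed. Leaving out 1 library gave 3 to 35 genes: 3 without WT replicate 1, 24 without WT replicate 2, 35 without KI replicate 1 and 23 without KI replicate 2, where the lone library was taken to vary like the other group. With the replicate number as a block 9 genes passed. The correlation of deviations between libraries of the same number was 0.0113. With 2 libraries per genotype this cannot tell whether the numbers pair libraries, and the labels do not say. Kcnq5 was higher in KI in all 15 alternatives that gave it a value and passed in 11, and Htr2c was lower in 13 of 13 and passed in 7. Of 93 named genes in the fit, 54 had 1 direction in every alternative with a value. Of 93 with an alternative, 68 moved by over 1.5 times in at least 1, and 18 beside Kcnq5 and Htr2c passed in at least 1, 10 of these with a library left out and in no other. The 18 genes were 4930509J09Rik, A230006K03Rik, Apoe, Calr, Cpne7, Erbb4, Gabrg3, Gm20754, Gm32647, Hba-a1, Hspa8, Lrch1, Oxr1, Pcdh7, Plcl1, Stxbp5l, Sv2b and Tenm2.

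The count of 2 genes that changed differently from other nuclei was 2 with RLE size factors, 18 without a filter, 10 with at least 1000 genes, 0 with at least 4 markers, 0 in the marker-rich nuclei and 2 to 18 with 1 library left out (6 without WT replicate 1, 18 without WT replicate 2, 14 without KI replicate 2). The causes were not tested. The difference in the share of endothelial nuclei, -0.00970 percentage points as KI minus WT, changed its sign in the marker-rich nuclei (0.00363 points), without WT replicate 1 (0.0571) and without KI replicate 1 (0.0173); the range with 1 library left out was -0.0765 to 0.0571.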

Other observations

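In the marker-rich nuclei, genes outside the lists with KI above WT and the smallest p included Tacc1, a centrosome protein, at 217 and 186 in WT against 588 and 537 CPM in KI, the membrane protein Mal at 282 and 279 in WT against 646 and 752 CPM in KI, Fermt2, which activates integrins, at 217 and 186 in WT against 529 and 466 CPM in KI, and Stt3b, a glycosylation enzyme, at 130.2 and 186 in WT against 382 and 502 CPM in KI. The neuronal genes Csmd1 and Tenm2 had KI above WT there too, at 716 and 309.8 in WT against 1528 and 1182 CPM in KI and 608 and 279 in WT against 1557 and 788 CPM in KI, and 88.7% and 88.1% of their UMIs in the 108 nuclei lay in the marker-poor nuclei. The part of RNA from other cells, oligodendrocytes among them, in the counts of Mal and the other genes here was not tested.

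Genes with KI below WT included the chloride channel protein Clic4 at 868 and 867 in WT against 264 and 394 CPM in KI, Lrch1 at 369 and 650.5 in WT against 176 and 107 CPM in KI, Palmd at 434 and 558 in WT against 176 and 215 CPM in KI, the unconventional myosin Myo10 at 391 and 527 in WT against 206 and 179 CPM in KI and the dynein light chain Dynll1 at 412 and 527 in WT against 206 and 179 CPM in KI. The others on this side were Ccny, Limch1 and Tspan13. None passed the adjusted threshold of edgeR, with adjusted p from 0.548 to 0.721.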
